A study of Homo sapiens with 27 samples.

Results

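The 8 genes described here encode peptides that neuroendocrine cells secrete: gastrin-releasing peptide (GRP), neuromedin B (NMB), neurotensin (NTS), the calcitonin and CGRP gene (CALCA), beta-CGRP (CALCB), somatostatin (SST), galanin (GAL) and parathyroid hormone-related protein (PTHLH). They were taken by name as a fixed list, without use of measured values, and all 8 were found among the 41686 human genes of the table of shRNA libraries. In the table of siRNA libraries, which lists 34742 human genes, 7 were found, and GAL was not analysed there. RNA was sequenced from SHP77, an established human small cell lung cancer line, in 17 libraries. In the first set, a lentivirus carried circRMST shRNA 1, circRMST shRNA 2 or the negative control shGFP, with 2 libraries each. These cells were kept in 3 ug/mL puromycin for 3 days or longer, and libraries were made from total RNA with a stranded kit. In the second set, cells received SOX2 siRNA 1, SOX2 siRNA 2, NKX2-1 siRNA 1, NKX2-1 siRNA 2 (2 libraries each) or si-control (3 libraries) for 72 hours, and libraries were made from poly(A) RNA. All groups are the same line without a further alteration, each target rests on 2 reagents, and nothing in the labels says that replicates were separate cultures, so p-values measure the spread between libraries, which may be technical. The series also holds 10 ChIP-seq samples, which were not analysed here.

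Pulmonary neuroendocrine cells and the small cell carcinomas that resemble them package peptides as precursors into dense-core granules, where convertases cut them before release. GRP and NMB are the mammalian relatives of bombesin and act through the receptors GRPR and NMBR, and GRP is a classical autocrine growth factor of small cell lung cancer. NTS acts through NTSR1 and NTSR2, the calcitonin family through CALCR or CALCRL with RAMP partners, GAL through GALR1 to GALR3 and PTHLH through PTH1R. SST, by contrast, acts through inhibitory receptors and restrains secretion of other hormones. SOX2 and NKX2-1 are lineage transcription factors, and circRMST is a circular RNA made from the RMST gene.

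The upstream sequences of the 4 genes whose values carry the main results are shown here, as the 250 bases before the RefSeq transcript start in GRCh38.p14, 5′ to 3′ on the gene's strand. Capitals mark the motif letters found on either strand by a search for TGACGTCA (the cAMP response element), TATAAA (the TATA box), CAGCTG (an E-box), ACAATG or ACAAAG (SOX type) and CAAGTG or CTCAAG (NKX2-1 type). GRP lies at chr18:59219908-59220157, plus strand. NTS lies at chr12:85874045-85874294, plus strand. CALCA lies at chr11:14972352-14972601, minus strand, and SST at chr3:187670395-187670644, minus strand.
GRP: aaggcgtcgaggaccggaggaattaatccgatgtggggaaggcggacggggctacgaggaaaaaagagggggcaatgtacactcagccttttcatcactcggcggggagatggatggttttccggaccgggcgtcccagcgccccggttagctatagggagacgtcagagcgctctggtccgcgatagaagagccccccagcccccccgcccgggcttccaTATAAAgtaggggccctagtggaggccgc
NTS: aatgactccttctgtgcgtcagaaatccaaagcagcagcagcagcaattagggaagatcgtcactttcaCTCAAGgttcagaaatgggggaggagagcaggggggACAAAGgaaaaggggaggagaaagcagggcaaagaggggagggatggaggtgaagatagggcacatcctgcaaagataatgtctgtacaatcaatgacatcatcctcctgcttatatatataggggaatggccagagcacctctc
CALCA: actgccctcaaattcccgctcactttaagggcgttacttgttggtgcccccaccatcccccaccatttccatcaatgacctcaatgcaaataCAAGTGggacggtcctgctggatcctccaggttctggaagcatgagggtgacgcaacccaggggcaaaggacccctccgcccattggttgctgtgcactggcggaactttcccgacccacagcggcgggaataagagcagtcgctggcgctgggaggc
SST: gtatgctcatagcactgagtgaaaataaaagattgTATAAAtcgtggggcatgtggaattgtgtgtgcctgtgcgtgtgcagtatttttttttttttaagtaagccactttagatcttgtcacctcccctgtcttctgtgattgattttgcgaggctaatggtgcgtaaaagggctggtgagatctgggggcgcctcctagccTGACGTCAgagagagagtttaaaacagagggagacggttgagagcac

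SST held TGACGTCA at positions -47 to -40 from the start, letters present in 1.65% of 35116 promoter windows of the same length. GRP held TATAAA at -29 to -24 and SST at -215 to -210, letters present in 10.7% of windows. NTS held ACAAAG at -145 to -140 and CTCAAG at -181 to -176, and CALCA held CAAGTG at -158 to -153. The SOX-type letters occurred in 21.2% of all windows and the NKX2-1-type letters in 18.3%. No window of the 6 members with a RefSeq promoter held CAGCTG, which 14.0% of all windows did. These matches describe letters and not binding. CALCB and GAL had no entry.

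The shRNA libraries held 46.9 to 57.4 M reads (M, mega) and the siRNA libraries 15.5 to 50.1 M. SOX2 fell to 393 ± 5.1 and 452 ± 19.1 normalized counts with its siRNAs 1 and 2, against 1142 ± 54.0 in si-control. NKX2-1 fell to 1014 ± 78.6 and 816 ± 28.5 with its own siRNAs, against 2234 ± 110.0 (SD, n = 2 each and n = 3). Over the alternatives, SOX2 was higher by 0.92 to 1.02 on the log2 scale in NKX2-1 knockdown. NKX2-1 was higher by 0.14 to 0.26 in SOX2 knockdown. In circRMST knockdown NKX2-1 was called lower and SOX2 higher, with alternatives from -0.55 to -0.35 and from 0.096 to 0.32. SOX2 did not pass there with equal library totals (adjusted p = 0.209 in limma). The RMST row counts the whole gene, so it does not check the circle, and it had 276 ± 19.1 and 260 ± 35.9 with the shRNAs, against 290 ± 20.1 in shGFP. The neuroendocrine label was checked against INSM1, CHGA, SYP and NCAM1, of which the lowest, SYP, had 1057 ± 186 in shGFP and 1385 ± 42.3 in si-control. NEUROD1, which marks another subtype, had 14.9 ± 3.63 in shGFP and 0.470 ± 0.814 in si-control. Among those neuroendocrine markers, INSM1 (-1.33) and SYP (-0.77) fell and CHGA rose (0.50) in circRMST knockdown, on the log2 scale. NCAM1 had 7087 and 4946 with the shRNAs, against 6465 in shGFP. In SOX2 knockdown INSM1 rose (0.47) and NCAM1 (-0.39) and SYP (-0.25) fell. In NKX2-1 knockdown INSM1 (0.45) and CHGA (0.19) rose, and UCHL1, a further neuroendocrine marker, fell (-0.13). UCHL1 rose in circRMST and SOX2 knockdown. DDC, also a neuroendocrine marker, fell in circRMST knockdown and rose in SOX2 knockdown. The part of these changes in the peptide results was not tested. Summed markers of fibroblasts were 806 to 879 and 468 to 535 with the shRNAs, against 465 to 579 in shGFP, and 361 to 376, 465 to 536, 209 to 238 and 236 to 243 with SOX2 siRNA 1, SOX2 siRNA 2, NKX2-1 siRNA 1 and NKX2-1 siRNA 2, against 145 to 165 in si-control. Of these 8 markers, 3 were at 0 in shRNA 1 (COL1A2, COL3A1, PDGFRB), 4 in SOX2 siRNA 2 (the same and THY1), 2 in NKX2-1 siRNA 2 (COL1A2, COL3A1) and 1 in si-control (PDGFRB). Of 4 fibroblast markers tested in the shRNA set LUM was higher (2.34) and COL1A1 (-2.78), DCN (-3.53) and PDGFRA (-2.04) were lower, on the log2 scale. Of 3 tested in the siRNA set, LUM (1.47) and PDGFRA (1.75) were higher with SOX2 siRNAs, and PDGFRA was higher (1.28) and COL1A1 lower (-1.37) with NKX2-1 siRNAs. Summed blood and endothelial markers (10 genes, 8 of them listed in the siRNA table) were 167 to 174 and 186 to 208 with the shRNAs, against 438 to 464 in shGFP. With the siRNAs they were 99.8 to 127, 135 to 173, 186 to 196 and 478 to 511 in the same order, against 383 to 404 in si-control. The part of these markers in the results was not tested. The 2 shGFP libraries stood apart by their low-level reads: of 1548 protein-coding genes that no siRNA library detected, 14.7 to 20.5% had a read in the 4 circRMST shRNA libraries and 82.4% and 85.6% in the shGFP libraries. The shGFP excess of these 1548 genes had a 99th percentile of 38.7 normalized counts, which is used below for low genes. COL1A1 (excess 37.7) and DCN (24.6) lay within it. COL1A1 also lost its call in circRMST knockdown with DESeq2 (adjusted p = 0.104) and with no filter (adjusted p = 0.0833 in limma). Its log2 fold change was -2.04 without shGFP replicate 1.

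The comparison of circRMST shRNAs with shGFP asked which genes depend on the circular RNA. GRP and NTS, both growth-promoting peptides, fell with each shRNA, and GAL was nearly without reads. CALCB rose, and CALCA fell with shRNA 2 and rose slightly with shRNA 1, a rise lost in most of 15 alternatives. By limma on log2(normalized count + 1), with p-values adjusted over 19068 genes and a threshold of 0.05, 1 of 8 members was higher and 5 were lower on average. Among all genes tested, 27.8% were higher and 25.9% lower (5294 and 4936 genes, or 3636 and 6512 with equal library totals, a scaling that shifts the median of all genes by -0.14). The members' median log2 fold change was -0.75, against 0.0015 for all genes. With the shRNAs tested singly, 1 member passed as higher with both (CALCB) and 4 as lower with both (GRP, NTS, GAL, NMB). Among all genes, 19.6% were higher and 17.4% lower with both shRNAs. GAL averaged 0.489 and 1.38 normalized counts with the shRNAs, against 36.1 in shGFP, and PTHLH 8.66 and 8.73, against 15.4. These 2 members reached the mean of at least 10 required for testing only through shGFP, so they could only be called lower. The members' median includes both, and the counts of lower members include GAL. The call of GAL therefore cannot be read against the shares of all genes. In bulk RNA, fewer expressing cells and less RNA per cell cannot be told apart.

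GRP (ENSG00000134443.9, chr18:59219189-59230771 in GRCh38.p14), the bombesin-like growth factor, had 729 and 723 normalized counts in the circRMST shRNA 1 libraries, 959 and 1052 in the shRNA 2 libraries, and 6028 and 5918 in the shGFP libraries. All 4 knockdown libraries lay far below both controls. The average log2 fold change was -2.80 (SE 0.07, adjusted p = 1.24e-19 in limma), which was -3.04 for shRNA 1 and -2.57 for shRNA 2. The lower level with shRNA 1 passed the test between the shRNAs (-0.47, SE 0.08, adjusted p = 8.46e-05). NTS (ENSG00000133636.10, chr12:85874295-85882992), whose peptide stimulates growth and gut motility, had 1075 and 970.1 with shRNA 1, 434 and 453 with shRNA 2, and 2574 and 2553 in shGFP. Here the order of the shRNAs was turned round, with shRNA 2 lowest. NTS fell by 1.33 on the log2 scale with shRNA 1 and by 2.53 with shRNA 2, and averaged -1.93 (SE 0.08, adjusted p = 1.03e-15). The difference between the shRNAs was 1.20 (SE 0.09, adjusted p = 7.39e-10). The ratio of GRP to NTS within a library was 0.678 and 0.745 with shRNA 1, 2.21 and 2.32 with shRNA 2, and 2.34 and 2.32 in shGFP, so that shRNA 2 lay at the control ratio although both genes were lower.

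CALCA (ENSG00000110680.12, chr11:14966668-14972351) gives calcitonin or alpha-CGRP, a vasodilator peptide, by alternative splicing, and its row counts both transcripts. It had 10452 and 9802 with shRNA 1, 7033 and 6849 with shRNA 2, and 9016 and 9376 in shGFP. The shRNA 1 libraries lay above the controls and the shRNA 2 libraries below them. CALCA was thus the 1 member that passed in opposite directions (0.14, SE 0.06, adjusted p = 0.0410, and -0.41, SE 0.06, adjusted p = 2.22e-06), as 0.519% of all genes did, and the shRNAs differed by 0.54 (SE 0.06, adjusted p = 1.57e-07). The rise with shRNA 1 was lost in 11 alternatives and was -0.0070 with equal library totals, and the average of -0.13 (adjusted p = 0.0226) was -0.28 with equal totals and lost its call without shGFP replicate 2 (adjusted p = 0.174), shRNA 1 replicate 2 (0.0794) or shRNA 2 replicate 2 (0.0674). CALCB (ENSG00000175868.13, chr11:15073593-15078637), its neighbour, encodes the closely related beta-CGRP, so reads of the pair may be shared. It had 1785 and 1534 with shRNA 1, 961 and 1059 with shRNA 2, and 837 and 696 in shGFP. All 4 knockdown libraries lay above both controls. The average was 0.76 (SE 0.09, adjusted p = 9.66e-08), with 1.12 for shRNA 1 and 0.40 (adjusted p = 0.00192) for shRNA 2. The shRNAs differed by 0.71 (SE 0.10, adjusted p = 1.36e-05), and the shRNA 2 value was 0.26 with equal totals and 0.27 without shGFP replicate 2 (adjusted p = 0.0853). CALCA over CALCB was 5.86 and 6.39 with shRNA 1, 7.32 and 6.47 with shRNA 2, and 10.8 and 13.5 in shGFP.

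The remaining members were low in this set, and their values are read against the shGFP excess given above. GAL (ENSG00000069482.6, chr11:68684544-68691175), a neuropeptide of many endocrine cells, had 0 and 0.978 normalized counts with shRNA 1, 2.76 and 0 with shRNA 2, and 39.0 and 33.2 in shGFP. That was 1 read and 3 reads against 73, ratios of normalized counts of 0.0140 (exact 95% interval 0.000351 to 0.0807) and 0.0405 (0.00816 to 0.123), intervals that cover counting error only. GAL passed with both shRNAs on average (adjusted p = 0.000204), but its excess of 35.2 lay within the 99th percentile of 38.7. NMB (ENSG00000197696.9, chr15:84655132-84658199), the other bombesin relative, had 71.2 and 56.7 with shRNA 1, 56.1 and 71.3 with shRNA 2, and 127 and 89.2 in shGFP. The groups did not overlap, and the average was -0.74 (SE 0.24, adjusted p = 0.0134). Without shGFP replicate 1 it was -0.49 and did not pass (adjusted p = 0.241), and its excess of 44.5 was just above the percentile. SST (ENSG00000157005.3, chr3:187668912-187670394) had 14.7 and 33.3 with shRNA 1, 25.7 and 12.4 with shRNA 2, and 39.0 and 18.0 in shGFP. These values overlapped, and the difference did not pass (-0.40, SE 0.47, adjusted p = 0.497). PTHLH (ENSG00000087494.15, chr12:27958084-27972733), the hormone of tumour hypercalcaemia, had 10.5 and 6.85 with shRNA 1, 9.19 and 8.26 with shRNA 2, and 17.5 and 13.3 in shGFP, which did not pass (-0.76, SE 0.57, adjusted p = 0.275). The excess of SST was 7.03 and that of PTHLH 6.68, both within the percentile.

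**Figure D1:**
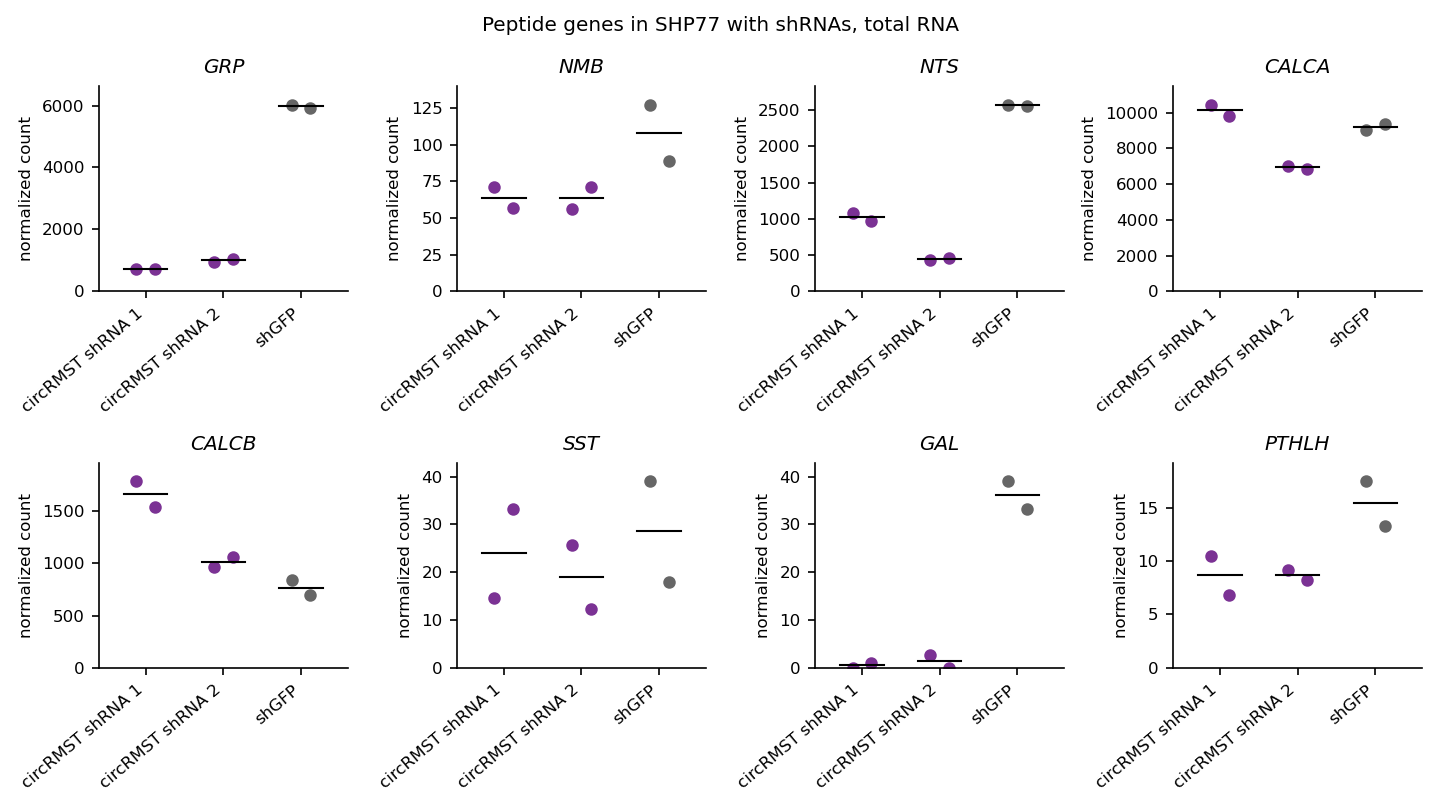
Normalized counts (y axis, linear from 0) of the 8 peptide genes in each library (points) of circRMST shRNA 1, circRMST shRNA 2 and shGFP, with the group mean as a line. GRP and NTS are lower and CALCB higher in all 4 knockdown libraries than in both shGFP libraries, and CALCA lies above them with shRNA 1 and below them with shRNA 2.

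The comparison of SOX2 siRNAs with si-control asked which genes depend on SOX2. SST rose strongly, GRP and NTS fell to about the same level with each siRNA, and CALCB and CALCA fell by less. Of 6 members tested among 16750 genes, 1 was higher and 5 lower on average, where 27.6% and 28.7% of all genes were higher and lower. With the siRNAs tested singly, 1 passed as higher with both (SST) and 4 as lower with both (GRP, NTS, CALCA, CALCB), against 18.6% and 19.3% of all genes. No member passed in opposite directions with the SOX2 siRNAs, as 1.01% of all genes did. The members' median was -0.35, against 0.0071 for all genes.

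SST, the inhibitory hormone with the cAMP response element shown above, had 110.3 and 107 normalized counts with SOX2 siRNA 1, 147 and 134 with siRNA 2, and 17.5, 17.1 and 29.6 in si-control. Every SOX2 siRNA library lay far above the highest control. The average log2 fold change was 2.52 (SE 0.21, adjusted p = 9.62e-11), a 5.74-fold rise that ranked 10 among the 4620 higher genes. The siRNAs gave 2.34 and 2.71 and their difference did not pass (-0.37, SE 0.28, adjusted p = 0.417). GRP had 1863 and 1995 with siRNA 1, 2052 and 2005 with siRNA 2, and 4675, 4790.4 and 4674 in si-control. It fell by 1.25 (SE 0.03, adjusted p = 7.17e-21), a 2.38-fold change, with groups far apart. NTS had 1028 and 1106, 1091 and 1094, and 2064, 2078 and 2096 in the same order of groups. It fell by 0.95 (SE 0.05, adjusted p = 1.34e-15), and neither gene differed between the SOX2 siRNAs by the test (GRP -0.07, adjusted p = 0.305, and NTS -0.03, adjusted p = 0.771).

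CALCA had 53874 and 50155 with SOX2 siRNA 1, 55947.5 and 56499.5 with siRNA 2, and 61493.5, 60762 and 61974 in si-control. All knockdown libraries were below the controls, by -0.18 on the log2 scale (SE 0.03, adjusted p = 4.63e-06). CALCB had 1524 and 1457, 1502 and 1616, and 2009, 2117 and 2094 in si-control, and fell by 0.44 (SE 0.04, adjusted p = 1.13e-09). CALCA over CALCB was therefore higher, at 34.4 to 37.3 in the 4 SOX2 siRNA libraries, against 28.7 to 30.6 in si-control. NMB had 273 and 276, 298 and 275, and 343, 323 and 333 in si-control, without overlap, and averaged -0.25 (SE 0.08, adjusted p = 0.0109). With siRNA 2 alone NMB did not pass (-0.22, adjusted p = 0.0647), and with quantile normalization the average did not (-0.14, adjusted p = 0.146). PTHLH had 2 reads over the 4 SOX2 siRNA libraries, 12 over the 4 NKX2-1 siRNA libraries and 2 over the 3 si-control libraries, and was not tested. In the test between the SOX2 siRNAs, which 18.5% of all genes passed, 1 member passed, CALCA, with -0.11 (SE 0.04, adjusted p = 0.0362), a call lost in 10 alternatives.

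The comparison of NKX2-1 siRNAs with si-control asked which genes depend on NKX2-1, and here the reagents have to be read one by one. CALCA, NTS and CALCB fell with each siRNA and by more with siRNA 1. SST and GRP went opposite ways, SST up and GRP down with siRNA 1, and SST down and GRP up with siRNA 2. On average 1 of 6 members was higher (GRP) and 3 lower, where 18.5% and 21.4% of all genes were higher and lower (3092 and 3592 genes, or 4225 and 2643 with equal library totals). With both siRNAs tested singly, 0 members passed as higher with both and 3 as lower with both (CALCA, NTS, CALCB), against 8.88% and 10.2% of all genes, and 2 of 6 passed in opposite directions, as 1.78% of all genes did. The test between the NKX2-1 siRNAs was passed by 5 of 6 members and by 26.5% of all genes.

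CALCA had 20737 and 22118 normalized counts with NKX2-1 siRNA 1, 42025 and 40492 with siRNA 2, and 61493.5, 60762 and 61974 in si-control. It fell by 1.52 with siRNA 1 (SE 0.03, adjusted p = 1.70e-22) and by 0.57 with siRNA 2 (SE 0.03, adjusted p = 4.68e-13), and the difference between them was -0.95 (SE 0.04, adjusted p = 1.57e-16). NTS had 851 and 767, 1717 and 1796, and 2064, 2078 and 2096 in the same order, changes of -1.36 (adjusted p = 8.10e-17) and -0.24 (adjusted p = 0.00118). The NTS difference between the siRNAs was -1.12 (SE 0.06, adjusted p = 1.28e-13). CALCB had 1223 and 1258, 1689 and 1697, and 2009, 2117 and 2094, changes of -0.74 and -0.29 that differed by -0.45 (SE 0.06, adjusted p = 5.88e-07). For all these peptides the 3 groups were separate, with siRNA 1 lowest and si-control highest. The RNA of NKX2-1 itself was higher with siRNA 1 than with siRNA 2, with a log2 difference of 0.31 (SE 0.06, adjusted p = 0.000579). Its part in the peptide differences was not tested.

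SST had 84.0 and 92.4 with NKX2-1 siRNA 1, 6.76 and 11.1 with siRNA 2, and 17.5, 17.1 and 29.6 in si-control. It rose 4.11-fold with siRNA 1 (2.04, SE 0.26, adjusted p = 3.06e-07) and fell by 1.16 on the log2 scale with siRNA 2 (SE 0.26, adjusted p = 0.000790), where it rested on 15 reads in all. The difference of 3.20 between the siRNAs (SE 0.28, adjusted p = 1.37e-09) was the largest among the 1966 genes that were higher with siRNA 1 than with siRNA 2. The average of 0.44 (adjusted p = 0.108) describes neither siRNA, and it passed without si-control replicate 3 (0.69, adjusted p = 0.0164) or without NKX2-1 siRNA 2 replicate 1 (0.60, adjusted p = 0.0324). GRP had 4209 and 4099.7 with siRNA 1, 6472 and 6509 with siRNA 2, and 4675, 4790.4 and 4674 in si-control. Its changes of -0.18 (adjusted p = 0.000941) and 0.46 (adjusted p = 1.24e-09) differed by -0.64 (SE 0.05, adjusted p = 2.65e-11), and with equal library totals the siRNA 1 value did not pass (-0.09, adjusted p = 0.0801). NMB had 277 and 298, 324 and 278, and 343, 323 and 333, with 1 library of siRNA 2 inside the control range, and did not pass (-0.18, SE 0.08, adjusted p = 0.0766).

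**Figure D2:**
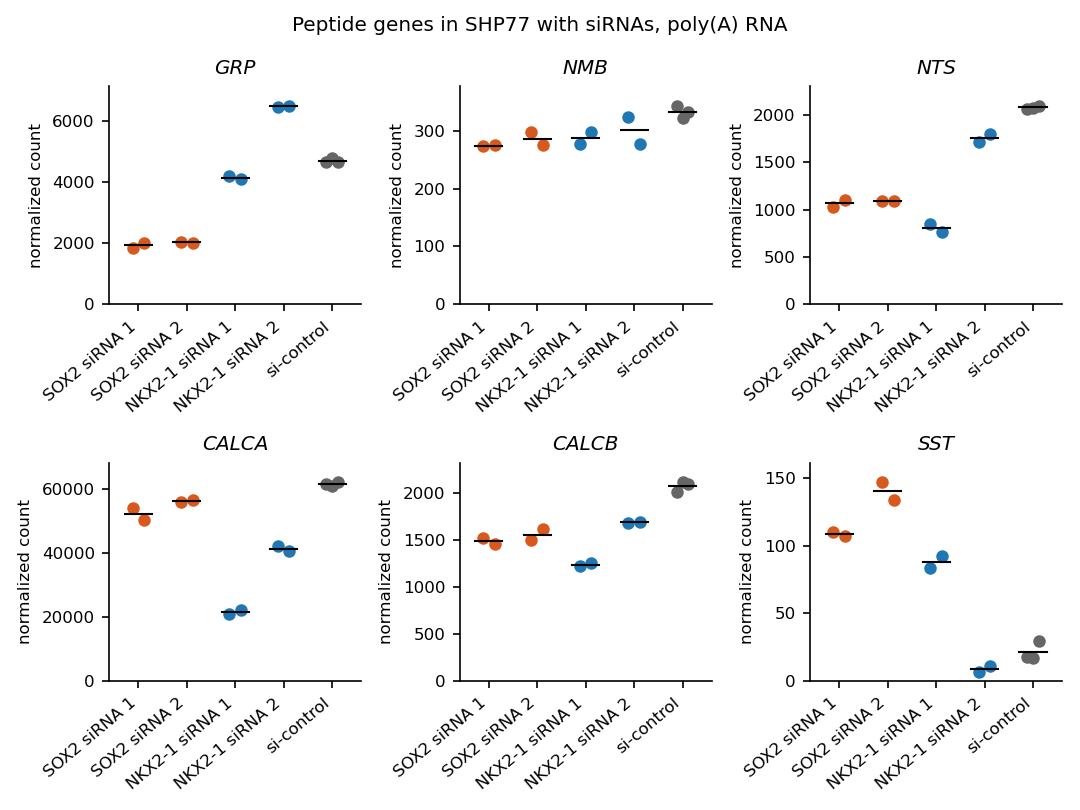
Normalized counts (y axis, linear from 0) of the 6 peptide genes tested in the siRNA libraries (points), with the group mean as a line. SST is at 107 to 147 with both SOX2 siRNAs and 84.0 to 92.4 with NKX2-1 siRNA 1, and at 6.76 to 11.1 with NKX2-1 siRNA 2 and 17.1 to 29.6 in si-control.

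Set against each other, the SOX2 siRNAs gave lower GRP (-1.39, SE 0.03, adjusted p = 1.54e-22) and higher SST (2.08, SE 0.20, adjusted p = 9.05e-10) and CALCA (0.86, SE 0.03, adjusted p = 4.86e-20) than the NKX2-1 siRNAs. NTS was slightly lower (-0.14, SE 0.04, adjusted p = 0.00677), a call lost without NKX2-1 siRNA 1 replicate 1 (-0.10, adjusted p = 0.0547). CALCB (0.07, SE 0.04, adjusted p = 0.125) and NMB (-0.07, SE 0.07, adjusted p = 0.477) did not pass. That made 4 of 6 members, where 55.8% of all genes passed in either direction. SOX2 itself was higher with the NKX2-1 siRNAs, and NKX2-1 slightly higher with the SOX2 siRNAs, than in si-control. The part of these changes in the differences was not tested. The ratio of CALCA to GRP within a library separated the targets, at 25.1 to 28.9 with the SOX2 siRNAs and 4.93 to 6.49 with the NKX2-1 siRNAs, against 12.7 to 13.3 in si-control. By mean level GRP ran from SOX2 siRNA 1 (1929) and SOX2 siRNA 2 (2028) through NKX2-1 siRNA 1 (4154) and si-control (4713) to NKX2-1 siRNA 2 (6491), and of these neighbours the SOX2 pair did not differ by the test and SOX2 siRNA 2 and NKX2-1 siRNA 1 were not tested singly, though their libraries did not overlap. SST ran from NKX2-1 siRNA 2 (8.94) and si-control (21.4) to NKX2-1 siRNA 1 (88.2), SOX2 siRNA 1 (109) and SOX2 siRNA 2 (141), where the SOX2 pair did not differ by the test and NKX2-1 siRNA 1 and SOX2 siRNA 1 were not tested singly.

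Of the 6 members tested with all 6 reagents, only NTS passed in the same direction with every reagent. Its falls ran from -0.24 with NKX2-1 siRNA 2 to -2.53 with circRMST shRNA 2. The share of all genes that passed so was not counted. CALCB rose with each circRMST shRNA and fell with the 4 siRNAs. In the test between the circRMST shRNAs 4 of 8 members passed (GRP, NTS, CALCA, CALCB), where 19.1% of all genes did. Reagents of 1 set share their control libraries, and the sets differ in delivery, time and RNA selection, so values of the sets stand side by side only.

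**Figure D3:**
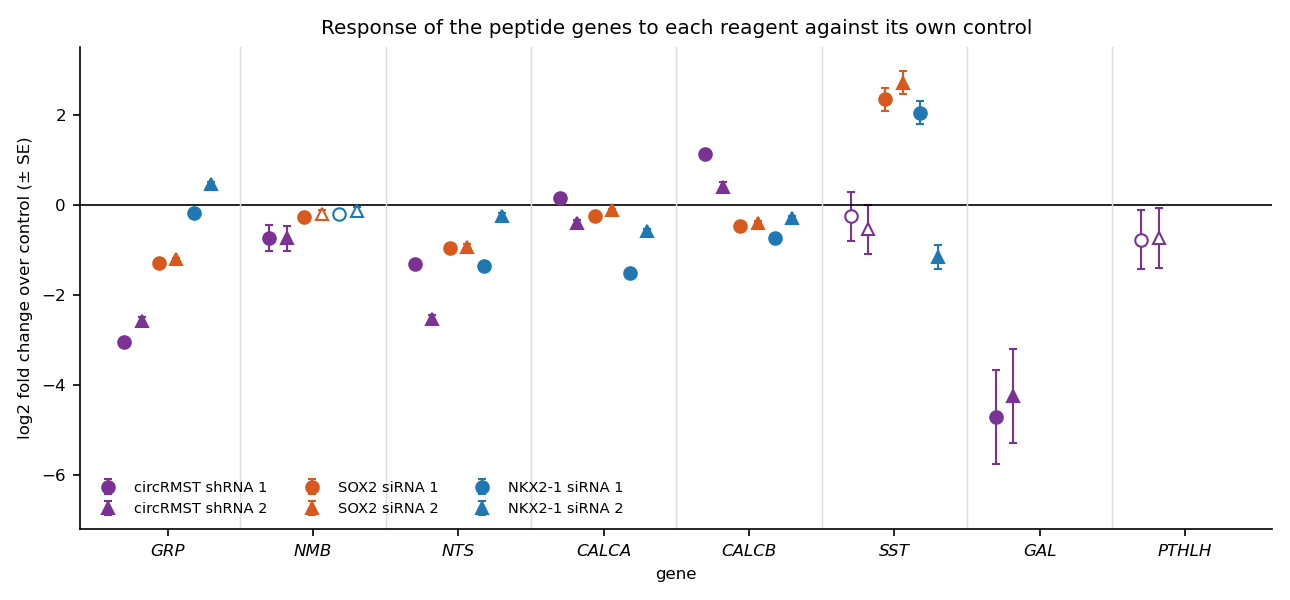
Log2 fold change over its own control (y axis, points with SE) of each peptide gene for the 6 reagents, where filled points passed the test (adjusted p below 0.05) and open points did not. NTS is below 0 for all 6 reagents, SST lies at 2.04 to 2.71 for 3 of them, and the fitted values of GAL depend on the pseudocount (1) because the shRNA libraries held 1 and 3 reads.

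Genes that convert, store and degrade these peptides were described from lists. Of 15 processing and granule genes 14 were tested, and 7 rose and 5 fell in circRMST knockdown, 0 rose and 11 fell in SOX2 knockdown, and 3 rose and 8 fell in NKX2-1 knockdown. Among all genes 27.8% rose and 25.9% fell in circRMST, 27.6% and 28.7% in SOX2, and 18.5% and 21.4% in NKX2-1 knockdown. The list's median log2 fold changes were 0.28, -0.60 and -0.18. PCSK1, the convertase that makes the first cuts in many precursors, had means of 38086 ± 789 with circRMST shRNA 1 and 17505 ± 12.6 with shRNA 2, against 20087 ± 243 in shGFP. It thus rose with shRNA 1 (0.92) and fell with shRNA 2 (-0.20, adjusted p = 0.00211), and fell in SOX2 knockdown (-1.36, SE 0.03) and NKX2-1 knockdown (-1.35, SE 0.03). PCSK2, the second convertase, fell in circRMST knockdown (-1.18, SE 0.06). VGF, a granule protein that is itself cut into peptides, rose in circRMST knockdown (1.80, SE 0.10) and fell in SOX2 (-1.51, SE 0.04) and NKX2-1 knockdown (-1.19, SE 0.04, and -0.73 with quantile normalization). SCG2, secretogranin II, fell in circRMST (-1.03, SE 0.04) and SOX2 knockdown (-0.93, SE 0.03), and PCSK1N, the PCSK1 inhibitor, rose in circRMST knockdown (1.04, SE 0.13). FURIN, a convertase of the constitutive pathway, fell in SOX2 knockdown, by 1.67 on the log2 scale with siRNA 1 and by 0.15 with siRNA 2 (-0.91 on average, SE 0.04), and in NKX2-1 knockdown (-0.61, SE 0.04). SCG5, the PCSK2 chaperone, fell in NKX2-1 knockdown (-0.39, SE 0.06).

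The processing genes also differed between reagents. Between the circRMST shRNAs 11 of 14 were higher with shRNA 1 and 0 lower, where 19.1% of all genes passed in either direction. Of the members, CALCA, CALCB and NTS were also higher with shRNA 1 and GRP was lower. Between the NKX2-1 siRNAs 1 was higher with siRNA 1 (FURIN) and 11 lower, where 26.5% of all genes passed in either direction. Of the members, CALCA, CALCB, NTS and GRP were also lower with siRNA 1 and SST was higher (3.20). PCSK1 had 10866 ± 419 with NKX2-1 siRNA 1, 28717 ± 274 with siRNA 2 and 44914 ± 172 in si-control, a difference between the siRNAs of -1.40 (SE 0.04, adjusted p = 6.66e-21). SCG2 fell with NKX2-1 siRNA 1 (-0.59) and rose with siRNA 2 (0.38, adjusted p = 1.65e-08).

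Most receptors had few reads. Of 20 receptor genes 11 were tested in the shRNA set, where 1 rose and 8 fell, and 7 in the siRNA set, where 2 rose and 1 fell with SOX2 siRNAs and 1 rose and 2 fell with NKX2-1 siRNAs. The shares of all genes were again 27.8% and 25.9% with circRMST shRNAs, 27.6% and 28.7% with SOX2 siRNAs, and 18.5% and 21.4% with NKX2-1 siRNAs. NTSR1, the high-affinity neurotensin receptor, had 1.96 ± 2.77 and 4.02 ± 3.08 with the shRNAs, against 82.6 ± 6.72 in shGFP. SSTR4 had 0.524 ± 0.741 and 0.459 ± 0.650 against 34.4 ± 11.0, PTH1R 1.57 ± 2.22 and 4.77 ± 2.36 against 47.0 ± 6.12, and SSTR1 2.55 ± 0.839 and 0.516 ± 0.730 against 29.6 ± 0.263. In si-control, which was normalized separately, NTSR1 had 1.23 ± 1.22, PTH1R 1.25 ± 2.16 and SSTR1 13.9 ± 2.98. For 6 of the 8 receptors that fell, the shGFP excess lay within the 99th percentile given above, and NTSR1 (79.6) and PTH1R (43.9) lay above it. NTSR1, SSTR4, PTH1R and SSTR1, like SSTR2, SSTR5 and GALR2, averaged below 10 normalized counts with each shRNA. They reached the mean of at least 10 required for testing only through shGFP, so they could only be called lower. The 8 lower of 11 therefore cannot be read against the shares of all genes. GRPR had 1.05 ± 1.48 and 5.68 ± 8.03 with the shRNAs, against 2.45 ± 0.560 in shGFP, and was not tested. SORT1, a sorting receptor that also binds NTS, rose in circRMST knockdown (5294 ± 92.8 and 6337 ± 155, against 4725 ± 282) and NKX2-1 knockdown (0.32, SE 0.03), where siRNA 1 alone did not pass (0.07, adjusted p = 0.196). With SOX2 siRNAs the galanin receptor GALR2 rose (0.83, SE 0.24, adjusted p = 0.00420) and SSTR2 fell (-0.60, SE 0.22, adjusted p = 0.0241), a call lost in 6 alternatives, with -0.44 (adjusted p = 0.147) without si-control replicate 2. With NKX2-1 siRNAs the CGRP co-receptor RAMP1 (-0.89, SE 0.30, adjusted p = 0.0193) and SSTR5 (-0.31, SE 0.10, adjusted p = 0.0183) fell on average, RAMP1 without passing for siRNA 2 alone (-0.24) and SSTR5 without passing for siRNA 1 alone (-0.16). RAMP1 lost its call in 6 alternatives, with -0.61 (adjusted p = 0.123) without NKX2-1 siRNA 2 replicate 1, and SSTR5 in 7, with DESeq2 (adjusted p = 0.0639) among them.

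Of 9 peptidases that degrade neuropeptides 8 were tested, to be read against the same shares of all genes (27.8% higher and 25.9% lower in circRMST, 27.6% and 28.7% in SOX2, 18.5% and 21.4% in NKX2-1 knockdown). In circRMST knockdown 3 rose and 0 fell, namely IDE (0.55, SE 0.06), ECE1 (0.55, SE 0.07) and THOP1 (0.41, SE 0.07, and 0.26 with equal library totals). In SOX2 knockdown 0 rose and 1 fell (DPP4, -0.69, SE 0.27, adjusted p = 0.0312), and in NKX2-1 knockdown ANPEP rose (0.58, SE 0.21) and ECE1 and ECE2 fell. DPP4 lost its call in 7 alternatives, with -0.42 (adjusted p = 0.240) without si-control replicate 1 and with DESeq2 (adjusted p = 0.0568). ANPEP lost its call in 6, with 0.39 (adjusted p = 0.164) without si-control replicate 3, and ECE2 lost its call without that library too (adjusted p = 0.0611). Of 81 other peptide hormone genes 16 were tested in the shRNA set, with 5 higher and 7 lower. In the siRNA set 21 were tested, with 4 higher and 10 lower for SOX2 and 5 higher and 6 lower for NKX2-1. These counts stand against those same shares of all genes, except the 7 lower in the shRNA set, which cannot be read so. Among these 7, EDN3 and NPB averaged below 10 normalized counts with each shRNA. They reached the mean required for testing only through shGFP, so they could only be called lower. CGA, the alpha subunit of the glycoprotein hormones, had 5577 ± 461 and 1122 ± 42.5 with the circRMST shRNAs, against 11936 ± 520 in shGFP, and was lower with both NKX2-1 siRNAs (-1.02 on average, SE 0.03). NMU, neuromedin U, had 36.2 ± 6.83 and 57.4 ± 12.3 with the shRNAs, against 202 ± 4.36 in shGFP. EDN3 and NPB also fell in circRMST knockdown, with shGFP excesses of 29.4 and 24.7 that lay within the percentile, and NPB lost its call without shGFP replicate 2 (adjusted p = 0.0675). In SOX2 knockdown APLN (apelin, -2.11, SE 0.35) and SPX (spexin, -1.13, SE 0.06) fell and the natriuretic peptide gene NPPC (1.30, SE 0.31) and GNRH2 (1.54, SE 0.60) rose. In NKX2-1 knockdown GNRH2 (1.72, SE 0.60) and QRFP (1.67, SE 0.34) rose and APLN fell (-1.01, SE 0.35). GNRH2 lost its call without si-control replicate 3 against either target, at 0.45 (adjusted p = 0.450) with SOX2 siRNAs and 0.63 (adjusted p = 0.331) with NKX2-1 siRNAs, and in DESeq2 (adjusted p = 0.0773 and 0.114). APLN in NKX2-1 knockdown lost its call in 6 alternatives, with the highest adjusted p, 0.0862, without NKX2-1 siRNA 1 replicate 1.

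**Figure D4:**
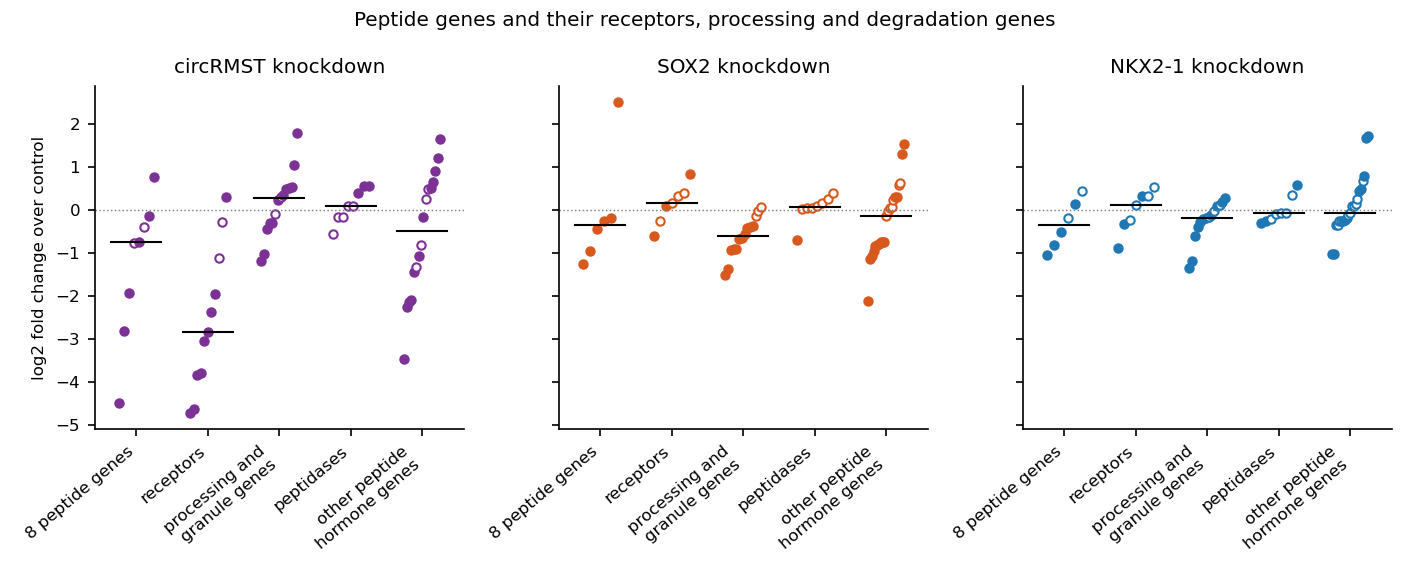
Log2 fold change over control (y axis) of each tested gene of the peptide, receptor, processing, peptidase and other hormone lists in circRMST, SOX2 and NKX2-1 knockdown. Filled points passed the test, open points did not, and lines are medians. Processing genes lie mostly below 0 in SOX2 knockdown (0 higher and 11 lower of 14, against 27.6% and 28.7% of all genes). Receptors lie mostly below 0 in circRMST knockdown (1 higher and 8 lower of 11). Most of these 8 were tested only through shGFP, so their count cannot be read against the shares of all genes.

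The genes whose 6 reagent fold changes lay closest to those of a member were found by the root mean square difference over the reagents among 12056 genes. For GRP they were SYNPO2L (0.31), MDS2 (0.35) and TMIGD2 (0.38), where the median gene lay at 1.86. For NTS they were CYBA, SPNS2 and DEPP1 (0.36 to 0.40), and for CALCA they were STK17B, LINC01348 and CCSER2 (0.22 to 0.27). For CALCB they were S100A11, SLC12A7 and DNAJC10 (0.11 to 0.13). Of the genes searched, EYA1 lay closest to SST, at 1.00, against 1.80 for the median gene. CTTNBP2 and COLCA1 lay at 1.08 and 1.09. SST itself averaged 23.9 in the shRNA set, so genes as low there were not searched. EYA1 shared the rise with the SOX2 siRNAs (2.93 and 2.44) and not the change with the NKX2-1 siRNAs (0.00094 and -0.0076). NMB lay closest to S1PR2, TRAFD1 and BPGM (0.031 to 0.066).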

How the data were processed

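RNA-seq of SHP77 cells was analysed in 17 samples grouped by their titles, and ChIP-seq was left out. The authors deposited normalized counts per gene, a depth-scaled signal without replicate pooling. Reads were trimmed with cutadapt 2.5, aligned with STAR 2.5.2b to hg38 and scaled with DESeq2, per the submitters' processing notes. The annotation, the counter and its strand setting are not given in the sources used here, so antisense and overlapping genes cannot be told apart. All values in each deposited column were whole multiples of the worth of 1 read within 0.05 (100% whole), which gave library totals of 15.5 to 57.4 M reads (M, mega). Non-human features (55 and 38) and pseudoautosomal Y copies (7 and 11) were left out, and 0 columns went unused.

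Values were tested as log2(normalized count + 1) with limma 3.58.1 in R 4.3.3, with 1 mean per reagent, all libraries of a table in a fit, a mean of at least 10, two-sided p-values with Benjamini-Hochberg adjustment over all genes tested, and a threshold of 0.05. A comparison with a target averages its 2 reagents, and ± is the SD. A fold change on this scale understates that of low genes. The fits were tested on simulated data. Alternatives were equal library totals (also without mitochondrial and 7SL genes), quantile normalization, pseudocounts 0.5 and 5, no filter, a mean of at least 50, edgeR 4.0.16 and DESeq2 1.42.0 on the recovered reads, only the groups compared, a replicate block and each library left out. Those for single reagents, reagent differences and list genes were added after seeing the data. Genes named beside the members were the targeted genes, up to 4 genes a list and knockdown that passed with the largest change, and the 3 genes nearest each member. The reagent values of PCSK1, SCG2, FURIN and CGA, GRPR and the promoters printed were chosen after their values were seen. The members and lists were chosen with earlier results of these data known. Promoters and gene spans are from RefSeq, GRCh38.p14 (6 of 8 members matched a promoter). Levels were not compared between genes per length. The result of 1 marker gene is not reported here.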

Additional observations from a re-analysis of the deposited data

Results flagged for a closer look

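The following differences between 2 reagents against the same target passed the test of the difference itself (limma, adjusted p below 0.05), given as log2 of reagent 1 minus reagent 2. Between the circRMST shRNAs they were 0.71 for CALCB, 0.54 for CALCA, 1.20 for NTS and -0.47 for GRP. Between the SOX2 siRNAs CALCA differed by -0.11. Between the NKX2-1 siRNAs SST differed by 3.20, CALCB by -0.45, CALCA by -0.95, NTS by -1.12 and GRP by -0.64. Their causes were not tested.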

How the results depend on the processing

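Values that turned direction did not pass the test in that alternative. With quantile normalization they were PTHLH 0.069 on average, 0.11 for shRNA 1, 0.030 for shRNA 2 and 0.077 between the shRNAs, SST 0.11 on average and 0.28 for shRNA 1, NMB 0.031 for SOX2 against NKX2-1 siRNAs and RMST 0.069 in SOX2 knockdown. With equal library totals CALCA was -0.0070 for shRNA 1 and NMB 0.00092 between the NKX2-1 siRNAs. With totals equalised after removal of mitochondrial and 7SL genes NMB was -0.063 between the shRNAs. With 1 library left out, SST ranged from -0.94 to 0.14 in circRMST knockdown, from -0.82 to 0.31 for shRNA 1 and from -0.27 to 0.86 between the shRNAs. Between the shRNAs GAL ranged from -1.42 to 0.49, NMB from -0.16 to 0.18 and PTHLH from -0.31 to 0.24. RMST in SOX2 knockdown ranged from -0.21 to 0.038, NTS between the SOX2 siRNAs from -0.087 to 0.018, and NMB between the NKX2-1 siRNAs from -0.17 to 0.049.

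With no filter 10409 genes were lower in circRMST knockdown, against 4936. With 1 library left out, 4269 to 5044 genes were higher and 3458 to 4773 lower in circRMST knockdown, with 4 to 5 members lower, 1 to 2 members were higher and 3 to 4 lower in NKX2-1 knockdown, and 1 to 2 were lower with SOX2 against NKX2-1 siRNAs. With pseudocount 5 the members higher in NKX2-1 knockdown were 2, SST being added (0.47, adjusted p = 0.0420). NMB lost its call for each circRMST shRNA alone in 5 alternatives, among them DESeq2 (adjusted p = 0.0593 and 0.0615), and for SOX2 siRNA 1 in 4. CALCA with SOX2 siRNA 2 lost its call with no filter (adjusted p = 0.0606), as CALCB with shRNA 2 did (0.0531). NMB in NKX2-1 knockdown passed without NKX2-1 siRNA 2 replicate 1 (-0.24, adjusted p = 0.0377). Replicate numbers did not pair the samples: correlations of deviations ran from -0.11 to 0.047. With the replicate block 2 members were higher in NKX2-1 knockdown, again with SST (0.69, adjusted p = 0.0215), CALCA lost its call for shRNA 1 (0.0649) and between the SOX2 siRNAs (0.0975), and the block gave 5236 higher and 4891 lower genes in circRMST, 4078 and 4358 in SOX2 and 2421 and 2980 in NKX2-1 knockdown. The causes were not tested. Few reads limit PTHLH, GAL and SST.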

Other observations

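The control groups of the 2 sets held GRP and NTS in like proportion but not CALCA. GRP over NTS within a library was 2.34 and 2.32 in shGFP and 2.23 to 2.31 in si-control. CALCA over GRP was 1.50 and 1.58 in shGFP and 12.7 to 13.3 in si-control. The sets were normalized separately and differ in RNA selection, kit, delivery and time, which cannot be told apart for this ratio. STC1, stanniocalcin 1, chosen after its values were seen, had 12346 ± 187 with circRMST shRNA 1 and 1644 ± 103 with shRNA 2, against 1941 ± 61.5 in shGFP, and the shRNAs differed by 2.91 (SE 0.06, adjusted p = 3.52e-19 in limma).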
